A study of Homo sapiens with 10 samples.

Results

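MN1, a transcriptional cofactor without a DNA-binding domain that is known by sequence, was followed in each of 10 RNA-seq libraries of RPE-1 cells. It is 1 of the 28380 genes of the deposited counts and 1 of the 13378 that had enough counts for a test. MN1 was selected on its measured fall under sulforaphane, so the difference of MN1 between treatments is given below as a description, without a p-value. Broccoli and related plants yield sulforaphane (SFN), a reactive compound, and the experiment addressed how cells alter their mRNA expression shortly after exposure to it. RPE-1 is an established line of human retinal pigment epithelial cells immortalized with telomerase, and all 10 libraries came from this line. Replicates of 50000 cells were exposed for 4 h to DMSO, the vehicle (5 replicates), or to SFN at 25 µM (5 replicates). The labels do not say whether these replicates were separate cultures, and the methods call replicates independent only in general terms, so the p-values below measure only the spread between these samples, which may be technical.

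MN1 was found as the gene broken by a chromosomal translocation in meningioma. Its protein is largely disordered and acts by bringing other proteins together: it coactivates the retinoic acid receptors with the acetyltransferase EP300 and the coactivator NCOA3, coactivates the vitamin D receptor, and associates with the BAF chromatin remodelling complex. Fusion of MN1 to ETV6 and high MN1 expression are both known from myeloid leukaemia, where the homeodomain protein MEIS1 works with it. Truncating changes of MN1 cause a developmental syndrome, and mice without the gene have defects of the cranial bones and palate.

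On GRCh38 the gene (ENSG00000169184) occupies chromosome 22 from 27748277 to 27801756 on the minus strand, 53480 bases in all, and its GENCODE 44 transcript has 2 exons. Exon 1 (27796763 to 27801756, 4994 bases) holds 3781 coding bases, and exon 2 (27748277 to 27751096, 2820 bases) holds the last 179 coding bases and the 3′ UTR. No other gene of the deposited counts overlaps MN1 (0 genes). Annotated genes without a row in those counts were not examined, so reads shared with such a gene were not tested for. QuantSeq libraries, which the study's methods name, sequence the 3′ ends of polyadenylated transcripts, while counts per gene do not show where the reads of MN1 fall. The last 30 bases of the transcript, chr22:27748277-27748306 on the minus strand, are shown for that reason, with the poly(A) signal hexamer in capitals.
MN1 transcript end: aaataacAATAAAtatgacgttaatggtga
The hexamer AATAAA occurs 1 time in this stretch. Counts were deposited per gene, so use of another 3′ end was not tested.

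The total count per library ranged from 15689294 to 20666692 in DMSO and from 12375860 to 17308706 in SFN. DMSO replicate 1 stood apart from the other libraries, with a mean Spearman correlation across genes of 0.935 with the other DMSO libraries against 0.979 to 0.982 for those. The TMM factor, which corrects for differences in library composition, was 0.886 for this library, 1.06 to 1.08 for the other DMSO libraries and 0.938 to 0.988 for SFN. Levels below are in CPM, counts relative to library size after this correction, and counts of calls are also given without DMSO replicate 1 where that moved them most.

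The mRNA of MN1 was far lower after 4 h in every SFN library than in any vehicle library. The 5 DMSO libraries had 311, 386, 352, 304 and 298 MN1 counts in the order of their replicate numbers, and the 5 SFN libraries had 41, 22, 34, 21 and 27. DMSO replicates 1 to 5 had 19.4, 17.6, 19.7, 18.3 and 17.6 CPM. SFN replicates 1 to 5 had 2.44, 1.90, 2.53, 1.42 and 1.91 CPM. The groups were far apart: the lowest DMSO library held 6.95 times the CPM of the highest SFN library. The means were 18.5 ± 0.968 CPM in DMSO and 2.04 ± 0.456 CPM in SFN (SD, n = 5 each), so SFN cells kept 11.0% of the DMSO level. The fitted log2 fold change was -3.18 with a standard error of 0.160, a 9.03-fold lower level, and without DMSO replicate 1 it was -3.16. In bulk RNA, fewer cells that express MN1 and less MN1 RNA per cell cannot be told apart. In the SFN libraries 1 count was worth 0.0596 to 0.0863 CPM, so the MN1 values there rest on few reads but lie well above the smallest value these libraries can show.

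**Figure D1:**
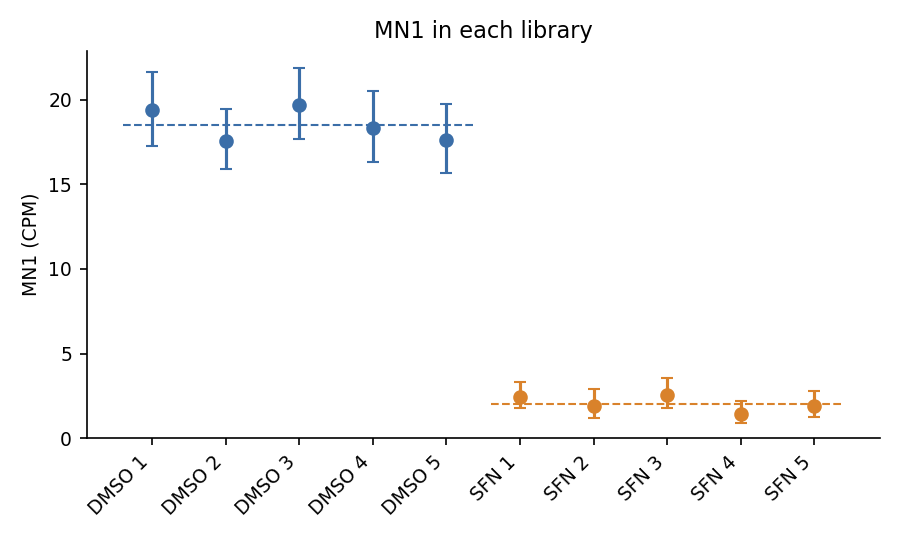
MN1 in each of the 10 libraries, in CPM from 0 upward, with exact Poisson 95% intervals of the counts as bars and the mean of each group as a dashed line. The 5 DMSO libraries lie between 17.6 and 19.7 CPM, all above the 5 SFN libraries at 1.42 to 2.53 CPM.

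The level of MN1 in vehicle was among the steadiest for genes of similar CPM. Its coefficient of variation over the 5 DMSO libraries was 5.22%, against 5.54% that counting error alone would give at these counts. Among the 3897 tested genes with a DMSO mean between 9.26 and 37.04 CPM, that is, within 0.5 to 2 times the level of MN1, the median coefficient of variation was 19.97%, and MN1 stood at percentile 2.62. In SFN its coefficient of variation was 22.4%, against 18.7% from counting error. The exact Poisson 95% intervals of the single libraries overlapped within each group, from 15.7 to 21.9 CPM over the DMSO libraries and from 0.877 to 3.54 CPM over the SFN libraries, and they cover counting error only. In SFN, replicate 4, with the lowest value, had an interval of 0.877 to 2.17 CPM, and replicate 3, with the highest, one of 1.75 to 3.54 CPM. Overlap of intervals is not a test, and differences between single SFN libraries were not tested.

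Few genes of similar DMSO CPM fell as far. Over all 13378 genes tested, the quasi-likelihood test of edgeR, with p-values adjusted by the Benjamini-Hochberg method, called 1862 decreased (13.9%) and 1214 increased (9.07%), together 3076 (23.0%). Among the 3897 genes of similar DMSO level 726 were called decreased (18.6%). In that set the log2 fold change of MN1 ranked second from the bottom (rank 2), where the median was -0.0761, the 5th percentile was -1.12 and 28 genes lay below -2. Over all genes tested it had rank 23, and among the 10149 genes with at least 5 CPM in DMSO it had rank 7. These ranks follow from how MN1 was selected and describe only its position.

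**Figure D2:**
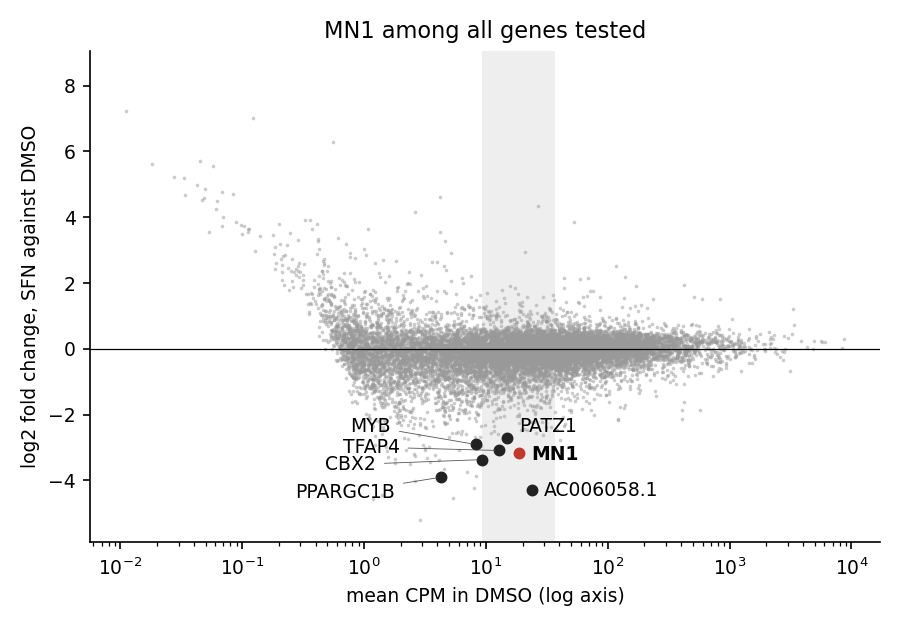
Log2 fold change of SFN against DMSO for 13375 genes against their mean CPM in DMSO on a log axis, with 3 genes at a DMSO mean of 0 not drawn and the band of similar DMSO level in grey. MN1 (red) lies at 18.5 CPM and -3.18, with AC006058.1 below it and TFAP4 and PATZ1 just above it in the band.

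AC006058.1 (ENSG00000261786, chromosome 3, 44117299 to 44122365) was the gene of that band that fell further. It is annotated as a long noncoding RNA and had 193 to 567 counts in DMSO and 3 to 27 in SFN, with means of 23.7 ± 7.80 and 1.18 ± 0.684 CPM (SD, n = 5 each). Its log2 fold change was -4.29 ± 0.396 (SE, edgeR adjusted p = 1.8e-05), and its DMSO libraries spread far more widely than those of MN1, from 12.02 CPM in replicate 1 to 33.6 CPM in replicate 5. The 5 genes next after MN1 were TFAP4, PATZ1, ZFP36L2, SALL2 and KBTBD6, with log2 fold changes from -3.09 to -2.57. TFAP4, a helix-loop-helix transcription factor that acts downstream of MYC, fell from 12.8 ± 1.30 to 1.49 ± 0.370 CPM (log2 fold change -3.09, adjusted p = 5.6e-07). ZFP36L2, an RNA-binding protein that promotes decay of mRNAs with AU-rich elements, fell from 29.5 ± 3.83 to 4.76 ± 0.741 CPM (log2 fold change -2.63, adjusted p = 4.6e-07). SALL2, a zinc finger transcription factor, went from 12.6 ± 3.87 to 2.09 ± 0.229 CPM, and KBTBD6, a substrate adaptor of a CUL3 ubiquitin ligase, from 25.5 ± 4.18 to 4.30 ± 0.724 CPM, with adjusted p-values of 2e-05 and 1.1e-06. In each of these genes every SFN library lay below every DMSO library, which was so for 1481 of the genes tested (11.1%). These genes were picked by their fall in the same comparison, so their separation and adjusted p-values only describe them.

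The genes nearest to MN1 library by library were CBX2, MYB, TFAP4, ZFP36L2 and MGA. Likeness was measured as the root mean square difference of log2 CPM over the 10 libraries, after the DMSO mean of each gene was set to 0, among 10148 other genes with at least 5 CPM in DMSO, where the median difference was 2.26. CBX2, a chromodomain subunit of Polycomb repressive complexes, was nearest at 0.294, followed by the transcription factor MYB at 0.306, TFAP4 at 0.379, ZFP36L2 at 0.460 and MGA, which pairs with MAX, at 0.498. CBX2 had 8.22, 9.52, 9.50, 10.8 and 7.93 CPM in DMSO replicates 1 to 5 and 0.715, 1.12, 1.19, 0.810 and 0.636 CPM in SFN replicates 1 to 5. MYB had 6.41, 8.11, 9.001, 7.77 and 9.83 CPM in DMSO and 1.49, 0.776, 1.27, 0.742 and 1.13 CPM in SFN. MGA had higher CPM, with 29.5 to 50.3 CPM in DMSO and 3.54 to 8.33 CPM in SFN, and lowest in DMSO replicate 1 among the DMSO libraries. For all 5 genes the groups were separate, which follows from choosing genes close to MN1 and is not a further result. By Pearson correlation, which ignores the size of a difference, the nearest 5 genes were UMPS, IRF1, RANBP6, DDX20 and EXO5, and 0 genes were shared with the first list, so the choice of measure decided which genes came out nearest. UMPS, an enzyme of pyrimidine synthesis, had a log2 fold change of only -0.71.

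**Figure D3:**
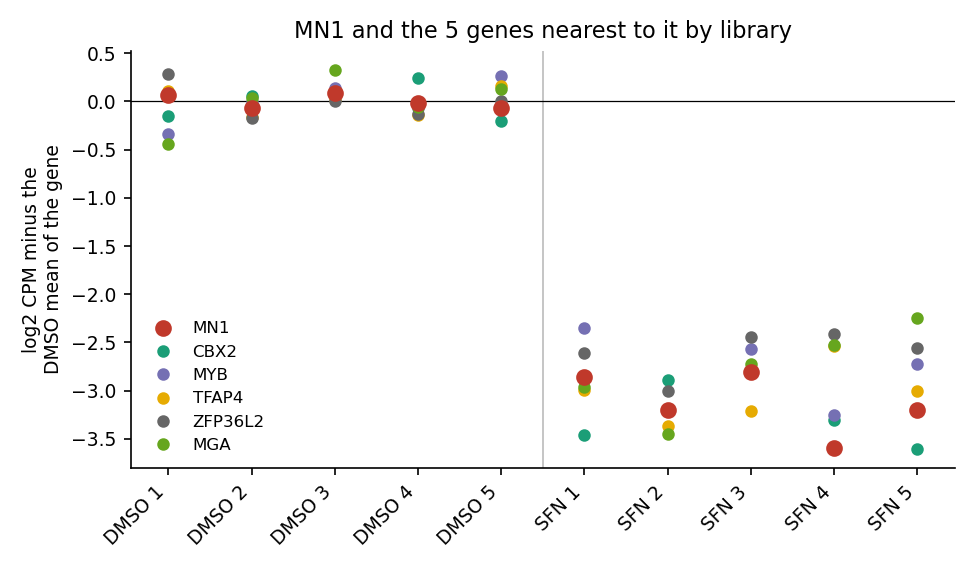
Log2 CPM of MN1 and its 5 nearest genes in each library, with the DMSO mean of each gene set to 0. The DMSO points of all 6 genes lie around 0 and the SFN points of all 6 lie below every DMSO point. MN1 (red, larger) is the lowest of them in SFN replicate 4.

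Beyond MN1 itself, 9 lists of genes tied to its known roles held 125 genes, of which 110 were in the deposited counts and 101 were tested. Of these 28 were decreased and 4 increased in the fit over all genes, where 13.9% and 9.07% of genes were, and the median log2 fold change was -0.17 against -0.03 over all genes tested. Without DMSO replicate 1 the number decreased was 44, while the share decreased over all genes tested was then 23.5%. The lists were written with earlier results of these data known, so their counts are not independent evidence of a direction. In all the lists 1 gene fell further than MN1.

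The nuclear receptors that MN1 coactivates were mostly lower in SFN, but by much less than MN1. Of 6 tested, 5 were decreased and 0 increased by edgeR, also at an unadjusted p under 0.05, with a median log2 fold change of -0.55. Over all genes tested, edgeR called 13.9% decreased and 9.07% increased. RARB, a retinoic acid receptor, had 14.5, 27.2, 24.3, 27.7 and 27.5 CPM in DMSO replicates 1 to 5 and 10.9, 12.2, 12.7, 14.4 and 14.1 CPM in SFN. All SFN libraries lay below all DMSO libraries, although DMSO replicate 1 lay just above SFN replicate 4. The log2 fold change was -0.91 ± 0.177 (SE, edgeR adjusted p = 0.003). RARA fell from 10.8 ± 3.23 to 5.47 ± 0.713 CPM (log2 fold change -0.98, adjusted p = 0.0088), RARG by 0.56, the partner receptor RXRA by 0.53 and the vitamin D receptor VDR by 0.52 on the log2 scale, with adjusted p-values of 0.011, 0.029 and 0.01. The DMSO and SFN libraries of RARA and RXRA overlapped. RXRB had a log2 fold change of -0.07 (adjusted p = 0.77), and RXRG was not analysed here. DESeq2 also called 5 decreased and limma-voom with quantile normalization 3, and both called 0 increased.

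The acetyltransferases and NCOA coactivators that work with MN1 at these receptors gave no calls: of 7 tested, 0 were decreased and 0 increased by edgeR, DESeq2 or limma-voom, also at an unadjusted p under 0.05, and the median log2 fold change was -0.04. EP300 had 56.2 ± 15.1 CPM in DMSO and 64.7 ± 21.2 CPM in SFN, and NCOA3 had 43.2 ± 12.9 and 40.3 ± 12.1 CPM (SD, n = 5 each). With standard errors up to 0.262 among these 7 genes, changes as small as those of VDR or RXRA could have been missed. The 6 nuclear receptor corepressors gave 0 calls by the same tools as well, with 1 at an unadjusted p under 0.05 and a median log2 fold change of -0.02. Without DMSO replicate 1, 1 corepressor was decreased, where 23.5% of all genes tested were. With all libraries, edgeR called 23.0% of all genes tested in either direction.

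Genes that respond to retinoic acid or vitamin D were mostly not called. Of 16 listed, 11 were in the counts and 7 were tested, and by edgeR 0 were decreased, also at an unadjusted p under 0.05, and 1 was increased. The shares decreased and increased over all genes tested were 13.9% and 9.07%. IGFBP3, an insulin-like growth factor binding protein induced by both ligands in many cells, had 232 to 253 CPM in the DMSO libraries and rose in SFN, to between 293 and 371 CPM, with no overlap (log2 fold change 0.41, edgeR adjusted p = 0.01). The call of IGFBP3 was lost in 3 other settings, library size scaling and limma-voom among them, and DESeq2 and limma-voom called 0 of the list decreased. The retinoid-degrading enzymes CYP26A1 and CYP26C1 and the vitamin D-degrading enzyme CYP24A1, which respond most directly to these receptors, had at most 4, 2 and 2 counts in any library. TGM2, DHRS3, CRABP2, RARRES1 and CYP26B1 were not called, with log2 fold changes between -0.47 and 0.50.

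MEIS1 and MEIS2, homeodomain cofactors of HOX proteins, fell together with MN1. MEIS1 had 8.72, 12.4, 15.0, 15.2 and 13.5 CPM in DMSO replicates 1 to 5 and 3.34, 1.90, 3.798, 3.71 and 5.44 CPM in SFN replicates 1 to 5, with no overlap (log2 fold change -1.83 ± 0.244, SE, with an edgeR adjusted p of 0.00024). MEIS2 fell from 47.5 ± 8.61 to 16.8 ± 1.81 CPM (log2 fold change -1.499, adjusted p = 2e-05). ZBTB24, a zinc finger protein listed as a DNA-binding partner of MN1, fell from 20.4 ± 5.83 to 6.24 ± 0.888 CPM (log2 fold change -1.71, adjusted p = 2e-04). In the list of HOX cofactors and DNA-binding partners 3 of 7 tested genes were decreased and 1 increased, against 13.9% and 9.07% of all genes tested. The increased gene was PKNOX1 (log2 fold change 0.44, edgeR adjusted p = 0.038), a call lost in 9 of the alternative settings. The cofactors PBX2 and PBX3 were not called, at -0.35 and 0.02. IGFBP5, the other tested gene of those reported to depend on MN1, had 57.3 ± 9.06 CPM in DMSO and 55.8 ± 7.97 CPM in SFN (adjusted p = 0.89), and HOXA9 and HOXA10 were not analysed here.

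**Figure D4:**
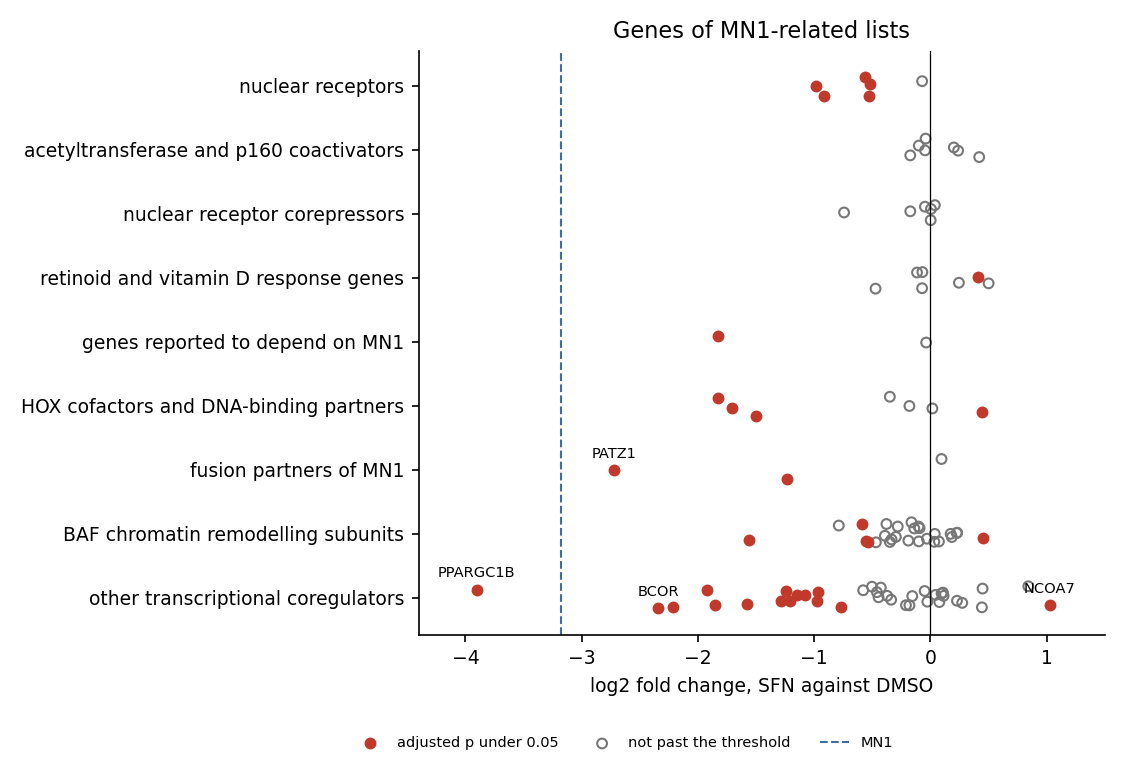
Log2 fold change of SFN against DMSO for the tested genes of the 9 lists, a filled point for adjusted p under 0.05 and an open one otherwise, with points spread vertically for legibility and MN1 as the dashed line at -3.18. The nuclear receptors sit left of 0 but above -1, the acetyltransferases and corepressors around 0, and PPARGC1B alone lies left of MN1.

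Subunits of the BAF chromatin remodelling complex were examined at the mRNA level. Of 27 tested, 4 were decreased and 1 increased, where 13.9% and 9.07% of all genes tested were. The share decreased was thus about that of all genes tested and says nothing particular of the complex. DPF3, a neuronal and muscle subunit that reads histone acetylation, showed the largest difference, with 8.78 to 12.4 CPM in DMSO and 2.44 to 4.24 CPM in SFN (log2 fold change -1.56, edgeR adjusted p = 8.5e-05). The DNA-binding subunits ARID1A and ARID2 fell by 0.58 and 0.54 and DPF1 by 0.56 on the log2 scale, with adjusted p-values of 0.0089, 0.04 and 0.039, and DPF2 rose by 0.45 (adjusted p = 0.023). The calls of ARID2 and DPF1 were lost in 9 and 10 of the alternative settings. The ATPases were not called: SMARCA4 had a log2 fold change of -0.38 and SMARCA2 one of -0.10. Subunits that were not called ranged from -0.79 to 0.23, so not called does not mean unchanged. Without DMSO replicate 1 the counts were 8 decreased and 1 increased, where 23.5% and 22.5% of all genes tested were.

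Among the genes known as fusion partners of MN1 in tumours, PATZ1 and CXXC5 were decreased and ETV6 was not called. The share decreased over all genes tested was 13.9%. PATZ1, a zinc finger repressor also encoded on chromosome 22, had 16.0, 14.0, 15.7, 12.1 and 16.3 CPM in DMSO replicates 1 to 5 and 1.67, 2.07, 2.08, 3.17 and 2.19 CPM in SFN (log2 fold change -2.72 ± 0.180, SE, with an edgeR adjusted p of 1.7e-06). CXXC5, which binds unmethylated CpG, fell from 45.6 ± 6.83 to 19.4 ± 1.59 CPM (log2 fold change -1.23, adjusted p = 3.1e-05). ETV6, an ETS-family repressor, had 8.10 ± 1.35 CPM in DMSO and 8.67 ± 1.46 CPM in SFN (log2 fold change 0.10, adjusted p = 0.73). BEND2 was not analysed here.

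Other transcriptional coregulators were taken as a wider comparison. Of the 37 tested, 14 were decreased and 1 was increased, where 13.9% and 9.07% of all genes tested were. The median log2 fold change was -0.43. PPARGC1B, a coactivator of nuclear receptors that promotes mitochondrial gene expression, was the gene that fell further than MN1. It had 2.93, 4.47, 5.54, 4.10 and 4.38 CPM in DMSO replicates 1 to 5 and 0.358, 0.0863, 0.149, 0.405 and 0.353 CPM in SFN replicates 1 to 5 (log2 fold change -3.90 ± 0.328, SE, with an edgeR adjusted p of 8.8e-06). The SFN values of PPARGC1B rest on 1 to 6 counts per library, so the size of its change is less certain than that of MN1. The BCL6 corepressor BCOR had 27.1, 46.4, 48.9, 48.1 and 47.2 CPM in DMSO and 8.76, 6.38, 8.42, 9.31 and 10.03 CPM in SFN (log2 fold change -2.34, adjusted p = 5.6e-06), and its relative BCORL1 had a log2 fold change of -1.92.

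Further members of this list belong to families with known pathways. MAML2 and MAML3, which coactivate Notch, had log2 fold changes of -2.21 and -1.29, while MAML1 was not called at -0.21. The call of MAML3, whose groups overlapped, was lost in 9 of the alternative settings, the replicate block among them. BCL9L and BCL9, which link beta-catenin to transcription, had -1.85 and -1.20, and the Groucho-family corepressor TLE1 had -1.08. The other TLE genes tested in this list were not called and differed in both directions. The serum response factor coactivators MRTFB and MRTFA had log2 fold changes of -1.58 and -0.97. The others that fell were AUTS2 at -1.25, the PPARGC1-related PPRC1 at -1.15, ZMIZ1 at -0.97 and CITED2, which competes for EP300, at -0.77, and the adjusted p-values of the decreased genes of this list, by edgeR, reached at most 0.038, that of MAML3. NCOA7, an estrogen receptor coactivator that also occurs as a short stress-inducible form, rose from 44.8 ± 5.66 to 91.5 ± 18.9 CPM (log2 fold change 1.03, adjusted p = 0.00056). The coactivators YAP1 and WWTR1 of the Hippo pathway were not called, at 0.27 and 0.04. Without DMSO replicate 1, 24 genes of this list were decreased and 2 increased, where 23.5% and 22.5% of all genes tested were.

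The genes near MN1 on chromosome 22 were also examined. Within 1 Mb of either end of MN1 the deposited counts held 19 genes, of which 9 were tested and the other 10 had at most 8 counts in any library. Of the 9, 0 were decreased by edgeR, DESeq2 or limma-voom, also at an unadjusted p under 0.05. Over all genes tested, edgeR called 13.9% decreased, and among 9 genes a count of 0 is close to that share. By edgeR 3 were increased, where 9.07% of all genes tested were, and by each of the other tools 4. The nearest tested gene toward lower coordinates, LINC01638, had a log2 fold change of -0.08 and MIATNB, further out, one of -0.10. PITPNB, a phosphatidylinositol transfer protein whose nearer end lies 49.9 kb from MN1, had 150 ± 28.0 CPM in DMSO and 182 ± 23.5 CPM in SFN (log2 fold change 0.28, adjusted p = 0.23). TTC28-AS1, 118 kb away, rose from 3.58 ± 0.334 to 7.09 ± 1.21 CPM (log2 fold change 0.99, adjusted p = 0.00079), but it overlaps PITPNB and TTC28 and whether the counting used strand is not stated, so its reads cannot be told from theirs. TTC28 itself had a log2 fold change of -0.12 (adjusted p = 0.7) and the checkpoint kinase gene CHEK2 one of 0.25 (adjusted p = 0.1), and HSCB one of 0.51 (adjusted p = 0.21). Near the far edge of the interval CCDC117 rose from 32.4 ± 3.37 to 63.0 ± 6.08 CPM and XBP1, a transcription factor of the unfolded protein response, from 69.2 ± 4.88 to 306 ± 25.5 CPM, with log2 fold changes of 0.96 and 2.14 and adjusted p-values of 8.6e-05 and 1.9e-07.

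**Figure D5:**
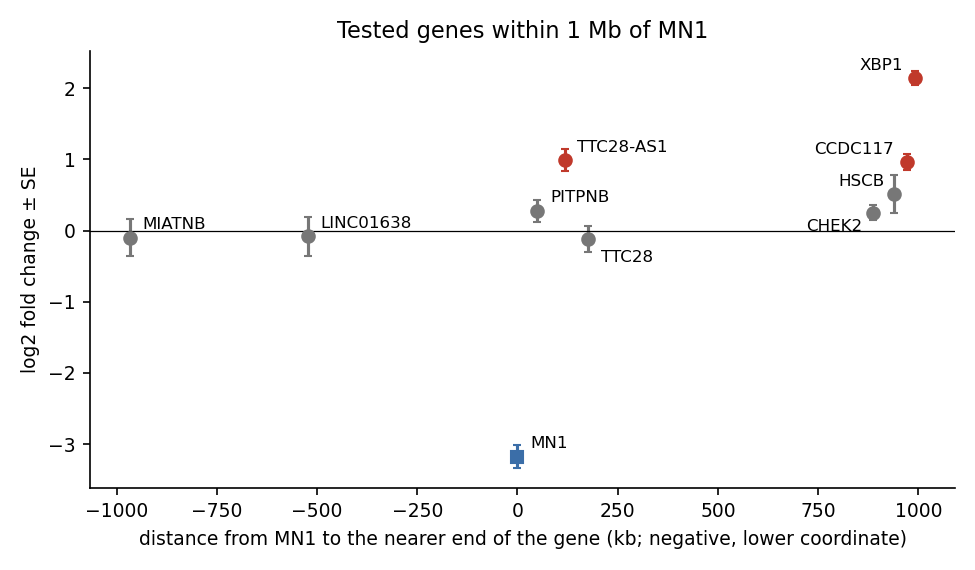
Log2 fold change with its standard error for MN1 (blue square) and the 9 tested genes within 1 Mb, against the distance in kb from MN1 to the nearer end of each gene, negative toward lower coordinates. MN1 lies at -3.18 and the neighbours between -0.12 and 2.14, with the 3 increased genes in red.

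The MN1 transcript is long, GC-rich and built of few exons. At 7814 bases it was as long as or longer than 90.7% of the transcripts of the 3721 coding genes of similar DMSO level, whose median was 3437 bases. Its GC content of 61.3% compared with a median of 48.6%, and its 2 exons with a median of 9. The 3′ UTR of 2638 bases held 3 copies of ATTTA, the core of AU-rich elements, against medians of 1407 bases and 2 copies. These letters are a description of the transcript and say nothing of which proteins bind it. Genes with 1 or 2 exons, a class chosen after the data were seen, numbered 233 in that set, with a median log2 fold change of -0.38 and 41.2% decreased, and the 3488 genes with 3 or more exons had a median of -0.06 and 17.1% decreased. Log2 fold changes below -1 occurred in 21.5% and 5.45% of these classes. Without DMSO replicate 1 the shares decreased were 48.1% and 29.5%.

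The cells were checked against markers of their labelled type. Of 12 retinal pigment epithelium genes listed, 10 were in the counts, and TYR and DCT were not analysed here. A DMSO mean over 1 CPM was seen for 4, namely BEST1, PMEL, OTX2 and MITF. BEST1 varied from 5.42 to 41.9 CPM in DMSO and from 19.4 to 107 CPM in SFN, and PMEL had a DMSO mean of only 1.004 CPM. Whether reads of an overlapping gene were counted for BEST1 was not tested. The summed level of the 10 was 62.5 to 105 CPM in DMSO and 55.8 to 137 CPM in SFN. The visual cycle isomerase RPE65, which defines the differentiated tissue, was at 0 in every DMSO library and at most 0.179 CPM in SFN, and RLBP1, TYRP1, TTR and SERPINF1 were at or near 0. MITF and OTX2, transcription factors of this lineage, fell from 50.8 ± 4.95 to 23.4 ± 2.78 CPM and from 14.0 ± 2.14 to 9.01 ± 0.286 CPM, and the adjusted p-values from edgeR were 5.3e-05 and 0.0029. The keratins KRT7, KRT8 and KRT18 and the mesenchymal genes CDH2, VIM and FN1 were all expressed. CDH1, the remaining gene of the 7 on this list, was not analysed here. EdgeR, DESeq2 and limma-voom called 0 of the 6 (at an unadjusted p under 0.05, 0, 1 and 0). Their summed levels were 11300 to 16410 CPM in DMSO and 15310 to 17970 CPM in SFN. Markers of blood, endothelial and neuronal cells summed to at most 2.18 CPM in DMSO and 1.43 CPM in SFN over the 5 genes in the counts, with SNAP25 the highest, and none reached a mean of 1 CPM in DMSO.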

How the data were processed

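QuantSeq 3′ mRNA libraries were made from the RNA of RPE-1 cells and processed with the Bluebee pipeline according to the study's methods. The submitters' processing notes name FastQC, STAR, featureCounts and edgeR with hg38 (GRCh38), while in the labels the library protocol is given as Illumina only. The values the authors deposited are unnormalized read counts for each Ensembl gene, 1 column per replicate. Strand use, molecular identifiers and the annotation release are not given in the sources used here. GENCODE 44 held 28145 of the 28380 identifiers, and 46 rows had no symbol.

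Counts were filtered with filterByExpr, scaled by TMM and fitted over all genes with glmQLFit and glmQLFTest in edgeR 4.0.16 (R 4.3.3), with Benjamini-Hochberg adjustment and calls at adjusted p under 0.05. Standard errors were obtained from the fitted change and its F statistic. The study's methods instead used voom with dream weights, quantile normalization and limma, with repeated measures that are not defined. Limma-voom 3.58.1 on quantile normalized values and DESeq2 1.42.0 were alternatives, beside other scaling, no filter, a replicate block and leaving out each library. On simulated counts of this comparison (13248 genes tested, 193 changed) 96.9% of the changed genes were recovered and 5.56% of calls were false. For the deposited counts, where DMSO replicate 1 stood apart, these shares were not tested.

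MN1, the lists and the tests were chosen with earlier results of these data known. The genes named are MN1, members of the lists, tested genes within 1 Mb, the genes of similar DMSO level that fell at least as far as MN1 with the 5 next, and the 5 nearest by library. The genes of the correlation ranking are its 5 first. Between the counts of any 2 replicates, chi-square over its degrees of freedom was 3.5 to 243, more than sampling noise. Precision depends on this spread as well as on the 12375860 to 20666692 counts per library, and intervals cover counting error only. Some members of the lists are not reported here by name.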

Additional observations from a re-analysis of the deposited data

Results flagged for a closer look

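For the 83 tested genes named here and each group of 5 libraries, the gap between the highest or lowest library and its nearest neighbour was divided by the range of the group, and values above 0.71 were noted (Dixon's test at 95%). Of 166 groups 31 passed, where chance would give about 8.3. MN1 was not among them, with 0.149 in DMSO and 0.431 in SFN. In 23 of the 31 the library was DMSO replicate 1, the lowest in 18 and the highest in 5, and 8 were other libraries. What set these libraries apart was not tested.

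Among genes called decreased, DMSO replicate 1 was low for BCOR, at 27.1 CPM against 46.4 CPM in the next library (gap over range 0.888), and for BCORL1, at 2.93 against 9.18 CPM (0.869). BCL9 had 2.68 against 8.43 CPM (0.836), MRTFA had 11.0 against 19.6 CPM (0.826), PPRC1 had 40.3 against 83.7 CPM (0.746) and ZMIZ1 had 62.8 against 152 CPM (0.736). Among the retinoic acid receptors, RARA had 5.23 against 11.3 CPM (0.752), RARB had 14.5 against 24.3 CPM (0.74) and RARG had 10.4 against 13.5 CPM (0.732). ZBTB24 had 10.3 against 21.4 CPM (0.738).

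Among genes that were not called, DMSO replicate 1 was low for FN1, at 3907 against 9183 CPM (0.872), PITPNB at 101 against 158 CPM (0.857), YAP1 at 143 against 249 CPM (0.84) and TGM2 at 193 against 386 CPM (0.834). It was also low for MAML1 at 21.98 against 33.1 CPM (0.805), EP300 at 29.8 against 59.3 CPM (0.802), NCOA3 at 21.1 against 45.1 CPM (0.723) and SMARCA2 at 88.8 against 128 CPM (0.722). It was high for CRABP2, at 7.78 against 3.01 CPM (0.889), KRT7 at 48.8 against 24.3 CPM (0.853), HSCB at 12.6 against 6.43 CPM (0.823), SMARCA4 at 530.1 against 325 CPM (0.721) and KRT8 at 531 against 376 CPM (0.72).

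SFN replicate 2 was high for BEST1, at 107 against 33.4 CPM (0.841), VIM at 8567 against 6430 CPM (0.762) and LINC01638 at 6.04 against 3.65 CPM (0.712), and low for WWTR1 at 118 against 153 CPM (0.748) and TGM2 at 393 against 435 CPM (0.726). SFN replicate 5 was high for ARID1A, at 78.3 against 58.5 CPM (0.83), and EP300 at 101 against 62.5 CPM (0.716). OTX2 was highest in DMSO replicate 5, at 17.7 against 13.6 CPM (0.733).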

How the results depend on the processing

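The log2 fold change of MN1 moved by less than the spread between replicates in every setting tried: -3.26 by library size alone, -3.21 with upper quartile factors, -3.16 by DESeq2, -3.08 by limma-voom, -3.18 without a low-count filter, -3.19 with the replicate block, and -3.26 to -3.06 when each library was left out. Its rank 2 became 7 when levels up to 4 times lower or higher than its own were taken. The 3076 genes called became 2383 to 6251 on leaving out 1 library, the 6251 without DMSO replicate 1, and 1163 with an absolute log2 fold change above 1. The 28 decreased list genes became 24 to 44, and 17 with that limit. The 4 increased became 2 to 5, and 1 under each of library size alone, no filter and that limit. The 3 increased neighbours became 1 with that limit and 1 within 500 kb. Increased genes made up 39.5% of calls, 27.5% by library size alone, where the median of all genes was -0.11, and 48.9% without DMSO replicate 1. The cause of these shifts was not tested.

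No clear pairing of libraries by the numbers in the labels was seen. Of 5 same-numbered pairs 1 had a correlation of deviations over 0.1 (-0.267 to 0.484), and 1 SFN library correlated best with its own number. With 5 libraries per group and DMSO replicate 1 apart, a weak pairing could have been missed. With the replicate block 1530 genes were decreased and 911 increased. For the 50 called genes named here other than MN1, 747 of 800 values in other settings kept their call, 53 lost it and 0 reversed: ARID2 9, BCL9 1, DPF1 10, DPF2 5, IGFBP3 3, MAML3 9, PKNOX1 9, RARA 1, RARG 1 and RXRA 5. Depth limits the SFN values of MN1, which rest on 21 to 41 counts per library, and genes with a few counts could not be tested.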
